A study of Mus musculus with 4 samples.

Results

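The MHC class I and peptide loading genes described here are 10 mouse genes chosen by name and found by Entrez identifier among the 16739 genes with a value in any library. They are the heavy chains H2-K1 and H2-D1, the light chain B2m, the peptide transporter subunits Tap1 and Tap2, the loading factor Tapbp, the immunoproteasome subunits Psmb8, Psmb9 and Psmb10, and the transactivator Nlrc5. All 10 were above 0 in every library and passed the filter on low counts. The RNA came from tumor-associated macrophages (TAMs), sorted by FACS as CD45+ CD11b+ F4/80+ cells 16 days after B16-F10 melanoma cells were placed under the abdominal skin. Both groups were C57BL/6 mice, inoculated at 6 to 8 weeks of age. WT mice were compared with mice carrying floxed Trim24 alleles and LysM-Cre, which is expressed in macrophages and other myeloid cells, with 2 libraries per group. The libraries are named WT1 and WT2, and KO1 and KO2 after their labels.

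The Trim24 transcript did not separate the groups, with 5.86 CPM in WT1, 2.08 in WT2, 3.41 in KO1 and 0.411 in KO2, so KO stands below for the label only. CPM here denotes expected counts brought to a common library total with TMM factors. The female transcript Xist was at 6.46 to 10.9 CPM in the WT libraries and at 256 to 437 CPM in the KO libraries. The male transcript Ddx3y showed the opposite order, with 73.7 to 102 CPM in WT and 0.411 to 0.426 CPM in KO, so the genotype label and sex cannot be told apart in any difference given below. The study's methods describe mice matched for sex, which these transcripts go against, and whether any library is mislabelled was not tested. Library totals were 4476122 to 5172407 expected counts. With the TMM factors the totals were 4694903 to 4952347, at which 3 counts are 0.606 to 0.639 CPM. The labels do not tie the libraries to single mice, and p-values measure only the spread between these libraries. All 11 macrophage markers tested were above 1 CPM in every library, and their sum was 18063 to 19929 CPM in WT and 20399 to 21631 CPM in KO.

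MHC class I molecules carry short peptides from proteins made inside the cell to the surface, where CD8+ T cells read them. The immunoproteasome cuts the proteins, the TAP transporter moves the peptides into the endoplasmic reticulum, and tapasin, the product of Tapbp, holds the empty class I molecule at the transporter until a peptide is bound. Interferon-gamma raises this pathway in most cell types, and NLRC5 acts on class I promoters together with factors that bind conserved promoter boxes. Macrophages express the pathway constitutively and can also present antigens taken up from dying tumor cells.

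The 250 bases before a RefSeq transcription start are shown for the chains of the class I molecule, together with the interval between Tap1 and Psmb9, because these genes gave the highest levels or share a promoter region. Of the 10 genes, 8 had an entry in the RefSeq promoter table of GRCm38.p6, and Tap2 and Nlrc5 did not. The H2-K1 window is chr17:34000334-34000583 on the minus strand and was taken from the downstream one of 2 starts in that table, while the RefSeq gene record reaches to position 34000619. The H2-D1 window is chr17:35262844-35263093 on the plus strand, before the RefSeq start at 35263094, and it lies inside the longer H2-D1 gene of the GENCODE M21 annotation, which begins at 35262730. The B2m window is chr2:122147437-122147686 on the plus strand. The Tap1-Psmb9 interval is chr17:34187331-34187555, written on the strand of Tap1, and its 225 bases lie between the RefSeq starts of these divergent genes, inside the longer Psmb9 gene of GENCODE M21. Capitals mark matches, on either strand, to 4 motifs. These are GAAA and GAAA spaced by 2 bases and GAANNGAAA (both of the kind bound by interferon regulatory factors), a kappaB element of 10 bases (the first run of capitals in both heavy chain lines) and CCAAT (the box bound by NF-Y).
H2-K1: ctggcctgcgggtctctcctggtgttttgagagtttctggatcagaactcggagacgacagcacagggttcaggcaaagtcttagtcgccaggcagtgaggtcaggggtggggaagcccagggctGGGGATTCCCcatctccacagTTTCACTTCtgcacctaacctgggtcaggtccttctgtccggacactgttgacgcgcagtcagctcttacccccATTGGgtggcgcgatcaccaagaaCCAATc
H2-D1: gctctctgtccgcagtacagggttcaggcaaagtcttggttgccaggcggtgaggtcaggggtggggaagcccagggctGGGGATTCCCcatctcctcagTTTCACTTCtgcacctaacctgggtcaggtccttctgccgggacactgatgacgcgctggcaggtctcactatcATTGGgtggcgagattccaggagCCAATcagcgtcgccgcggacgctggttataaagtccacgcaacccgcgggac
B2m: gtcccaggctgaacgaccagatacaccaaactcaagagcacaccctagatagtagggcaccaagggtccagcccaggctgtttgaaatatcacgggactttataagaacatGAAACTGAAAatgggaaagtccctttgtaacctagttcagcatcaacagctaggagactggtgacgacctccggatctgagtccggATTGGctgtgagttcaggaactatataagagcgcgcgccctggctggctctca
Tap1-Psmb9: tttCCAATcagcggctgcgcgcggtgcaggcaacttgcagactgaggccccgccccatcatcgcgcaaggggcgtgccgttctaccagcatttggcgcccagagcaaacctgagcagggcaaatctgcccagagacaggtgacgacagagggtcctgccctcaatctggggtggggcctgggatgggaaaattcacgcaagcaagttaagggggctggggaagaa

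Both heavy chain promoters held the kappaB element followed by GAANNGAAA on the opposite strand. In H2-K1 these lay 125 to 116 and 104 to 96 bases before the start, and in H2-D1 they lay 171 to 162 and 150 to 142 bases before it. The kappaB element occurred in 0.0852% of the 32851 promoter windows searched and GAANNGAAA in 6.31%. B2m held the pair of GAAA copies spaced by 2 bases at 139 to 130 bases before its start, a match that 2.98% of all windows held. CCAAT was present in both heavy chain windows, in B2m and in the Tap1-Psmb9 interval, and in 33.8% of all windows. The search also included TTCNNNGAA (the GAS element, 7.02% of windows), found in Psmb8, and the same half-sites spaced by 4 bases (the spacing that Stat6 prefers, 5.85% of windows), found in Psmb10. These matches describe the letters and not binding.

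The heavy chains and B2m were among the most abundant transcripts of the TAMs. H2-K1, which encodes the K heavy chain (chr17:33996017-34000347, minus strand, 8 exons), was at 2638 CPM in WT1, 1907 in WT2, 4070 in KO1 and 2872 in KO2. H2-D1, which encodes the D heavy chain (chr17:35262730-35267499, plus strand, 8 exons), was at 4869 and 3919 CPM in WT1 and WT2 and at 7388 and 6912 CPM in KO1 and KO2. B2m, which encodes the beta-2-microglobulin light chain that every class I heavy chain needs (chr2:122147686-122153083, plus strand, 4 exons), was at 5989, 4614, 9176 and 6231 CPM in the same order. For each of these genes both KO libraries lay above both WT libraries, but the margin between WT1 and KO2 was small for H2-K1 and B2m. On the FPKM scale, which divides by transcript length and does not carry the TMM factors, the groups of H2-K1 and B2m overlapped. The TMM factors were 1.03 and 1.08 in WT1 and WT2 and 0.957 and 0.943 in KO1 and KO2. H2-K1 was at 1626 and 1227 FPKM in WT1 and WT2 and at 2330 and 1620 FPKM in KO1 and KO2. B2m was at 7334 and 5898 FPKM in WT and at 10438 and 6983 FPKM in KO.

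Means over each group were 4394 ± 672 CPM in WT and 7150 ± 336 CPM in KO for H2-D1 (SD, n = 2). H2-D1 had a log2 fold change of 0.70 (SE 0.24), with an adjusted p of 0.28 by edgeR's quasi-likelihood test (Benjamini-Hochberg over all genes tested). H2-K1 rested on 2273 ± 517 and 3471 ± 847 CPM, a log2 fold change of 0.61 (SE 0.27, adjusted p = 0.407, same edgeR test). B2m had group means of 5302 ± 973 and 7703 ± 2082 CPM and a log2 fold change of 0.54 (SE 0.28, adjusted p = 0.462, same edgeR test). Without KO1, the log2 fold change of B2m was 0.24 and that of H2-K1 was 0.34, and without KO2 they were 0.79 and 0.84. Without WT1, H2-K1 was at 0.88 and B2m at 0.76, and without WT2 they were at 0.40 and 0.36. None of the 3 passed the threshold, set at an FDR under 0.05 together with a fold over 1.5 in either direction. In these bulk libraries a change in the number of cells of a type and a change in RNA per cell cannot be told apart.

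The balance between the chains varied between libraries as well. The FPKM of B2m was 1.63 times the summed FPKM of H2-K1 and H2-D1 in WT1, 1.62 in WT2, 1.63 in KO1 and 1.30 in KO2, so KO2 alone stood lower. H2-D1 over H2-K1 was 1.77 and 1.97 in WT and 1.74 and 2.31 in KO, and the groups overlapped. B2m took 1.26 and 1.06% of all FPKM in WT and 1.81 and 1.20% in KO, and it ranked between place 4 and place 6 of all genes in every library.

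Reads of the classical heavy chains can also match related genes. Of the 50-base windows of the H2-K1 transcripts in GENCODE M21, 8.79% occurred in transcripts of other genes, most of them in H2-D1, and the share was 14.3% for H2-D1 and 0 for B2m. The heavy chain genes were therefore also summed, as the 15 genes H2-K1, H2-D1 and the H2-Q and H2-T genes in the files, so that the division of reads among them does not matter. This sum was 8816 CPM in WT1, 6845 in WT2, 14000 in KO1 and 11309 in KO2, again with both KO libraries above both WT libraries. Its log2 fold change was 0.69 (SE 0.26), with an unadjusted p of 0.0244 and an adjusted p of 0.324 by edgeR's quasi-likelihood test. H2-K1 and H2-D1 together made up 81.8 to 86.5% of the summed counts.

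**Figure D1:**
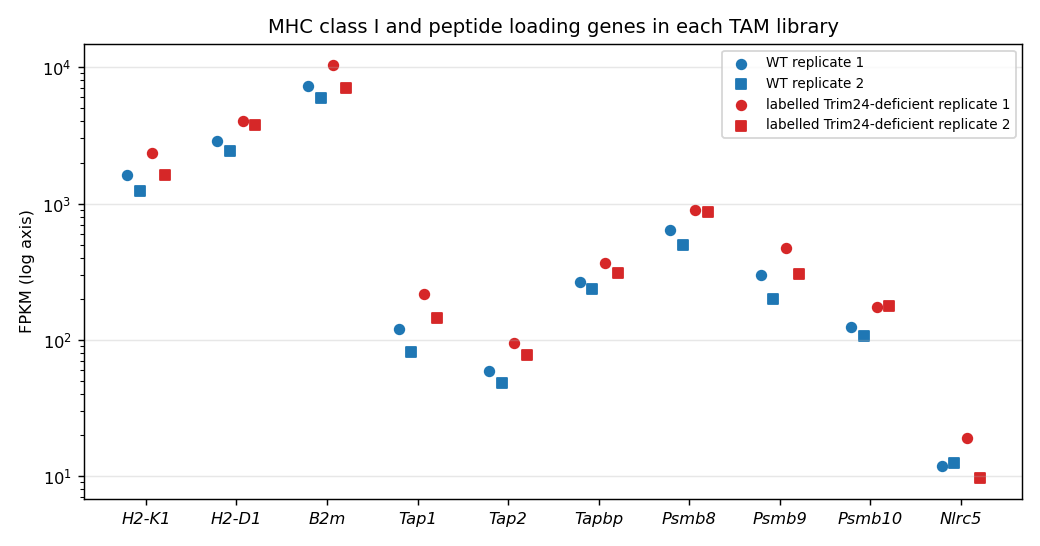
FPKM (log axis) of each of the 10 genes in the 4 TAM libraries, circles for replicate 1 and squares for replicate 2, WT in blue and libraries labelled Trim24-deficient in red. B2m is highest and Nlrc5 lowest in every library, and both red points lie above both blue points for 7 of the 10 genes.

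Among the transport and loading genes, Tap1 had the largest fold of the 10. Tap1 encodes the first subunit of the peptide transporter (chr17:34187553-34197225, plus strand, 12 exons) and was at 345 CPM in WT1, 223 in WT2, 681 in KO1 and 458 in KO2. Its partner Tap2 (chr17:34203527-34216321, plus strand, 12 exons) was at 143 and 114 CPM in WT1 and WT2 and at 250 and 207 CPM in KO1 and KO2. Tapbp (chr17:33915899-33929292, plus strand, 8 exons) was at 722, 615, 1058 and 914 CPM in the same order. The groups did not overlap for any of the 3, on either the CPM or the FPKM scale, and WT2 was lowest and KO1 highest each time.

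The log2 fold change of Tap1 was 1.0 (SE 0.28), from 284 ± 86.7 CPM in WT to 569 ± 157 CPM in KO, with an unadjusted p of 0.00529 and an adjusted p of 0.201 by edgeR's quasi-likelihood test. Tap2 had a log2 fold change of 0.83 (SE 0.21, unadjusted p = 0.00292, adjusted p = 0.168, same edgeR test). Tapbp had a log2 fold change of 0.56 (SE 0.21, adjusted p = 0.34, same edgeR test). Without KO2, Tap1 (1.26, adjusted p = 0.00104) and Tap2 (0.96, adjusted p = 0.00387) passed the threshold in the edgeR fit of 2 WT libraries and KO1 alone, where the lone KO library is assumed to vary like WT. Without WT1, the log2 fold change of Tap1 was 1.37, and without KO1 it was 0.69.

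Both transporter subunits are needed for a working TAP complex, and their transcripts were not equally abundant. Tap1 over Tap2, as a ratio of FPKM, was 2.04 in WT1, 1.67 in WT2, 2.29 in KO1 and 1.87 in KO2, so the ratio overlapped between the groups and was higher in replicate 1 of each. Tap1 and Psmb9 face away from each other across the interval shown above. Psmb9 over Tap1 was 2.49 and 2.44 in WT and 2.17 and 2.11 in KO, with both KO libraries below both WT libraries. In GENCODE M21 the transcripts of Tap1 and Psmb9 overlap on opposite strands, 12.5% of the 50-base windows of Psmb9 occur in Tap1, and whether counting used the strand is not given in the sources used here. For Tapbp, 21.0% of the windows occurred in other genes, and for Tap2 12.6%.

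The immunoproteasome subunits replace the standard catalytic subunits of the proteasome, Psmb8 in place of Psmb5, Psmb9 in place of Psmb6 and Psmb10 in place of Psmb7. Psmb8 (chr17:34197721-34201454, plus strand, 6 exons) was at 755 CPM in WT1, 559 in WT2, 1141 in KO1 and 1119 in KO2. Psmb9 (chr17:34181987-34187764, minus strand, 6 exons) was at 228 and 145 CPM in WT1 and WT2 and at 390 and 255 CPM in KO1 and KO2. Psmb10 (chr8:105935735-105938444, minus strand, 8 exons) was at 153, 126, 231 and 235 CPM in the same order. Both KO libraries were above both WT libraries for all 3 subunits, and KO1 and KO2 were close to each other for Psmb8 and Psmb10.

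Psmb8 had a log2 fold change of 0.78 (SE 0.23), from 657 ± 138 to 1130 ± 15.8 CPM, with an adjusted p of 0.214 by edgeR's quasi-likelihood test. Psmb9 had a log2 fold change of 0.79 (SE 0.28, adjusted p = 0.296, same edgeR test). Psmb10 had a log2 fold change of 0.74 (SE 0.19, unadjusted p = 0.00365, adjusted p = 0.181, same edgeR test), from 139 ± 19.0 to 233 ± 3.10 CPM. None passed with all 4 libraries. Without KO2, Psmb9 (1.06, adjusted p = 0.00415) and Psmb10 (0.73, adjusted p = 0.0361) passed in the edgeR fit, and without KO1, Psmb10 passed (0.76, adjusted p = 0.0346). The value for Psmb9 was 0.45 without KO1 and 1.16 without WT1.

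With all 4 libraries the standard subunits had smaller log2 fold changes than the subunits that replace them. Psmb5 was at 187 and 161 CPM in WT and at 185 and 180 CPM in KO, and its log2 fold change was 0.07 (adjusted p = 0.914, edgeR's quasi-likelihood test), a value that is below 0 with library totals as the scaling. Psmb7 was at 181 and 161 CPM in WT and 190 and 183 CPM in KO, with a log2 fold change of 0.13 (adjusted p = 0.824, same edgeR test), which also falls below 0 with library totals. Psmb6 was at 315, 291, 312 and 523 CPM, so KO2 stood well above the other 3 libraries, and its log2 fold change was 0.46 (adjusted p = 0.499, same edgeR test). Without KO1, Psmb6 passed (0.79, adjusted p = 0.036, edgeR) and was above Psmb9 (0.45), and without KO2 it was at 0.044.

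Each immunoproteasome subunit was then expressed as a percent of its sum with the subunit it replaces, in FPKM, a share that does not depend on how libraries are scaled. Psmb8 made up 74.0 and 70.9% of its pair in WT1 and WT2 and 81.2 and 81.4% in KO1 and KO2. Psmb10 made up 38.9 and 37.2% in WT and 47.9 and 49.2% in KO. In both pairs the groups were further apart than the libraries within them. Psmb9 made up 48.4 and 39.4% in WT but 61.9 and 38.8% in KO, so KO1 was highest and KO2 lowest, with the high Psmb6 of KO2 in the sum. The mean of the 3 percents was 53.8 and 49.2 in WT and 63.7 and 56.5 in KO, a difference of 8.59 percentage points. The exact two-sided permutation test gave p = 0.333, the smallest that 2 against 2 libraries allow. The difference was 4.99 percentage points without KO1.

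**Figure D2:**
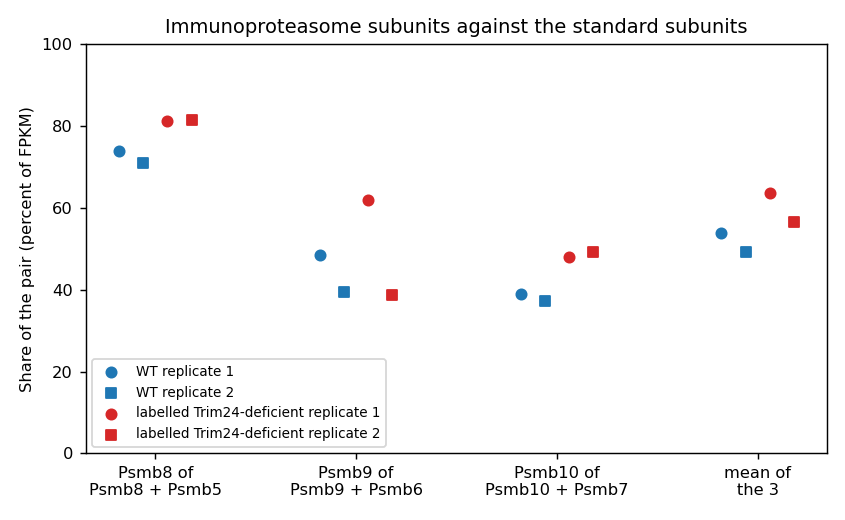
Share of each immunoproteasome subunit in the summed FPKM of the pair (percent), with the mean of the 3 pairs at the right, for the 4 libraries. The red points (libraries labelled Trim24-deficient) lie above the blue points (WT) for Psmb8, Psmb10 and the mean, and overlap them for Psmb9, where KO2 is at 38.8%.

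Nlrc5 encodes a NOD-like receptor family protein that acts as the class I transactivator (chr8:94434356-94527272, plus strand, 49 exons). It was at 81.6 CPM in WT1, 82.5 in WT2, 141 in KO1 and 72.5 in KO2. KO1 was the highest library and KO2 the lowest, so the groups overlapped, while the WT libraries were nearly equal. Its log2 fold change was 0.38 (SE 0.28), with an adjusted p of 0.621 by edgeR's quasi-likelihood test. Without KO1 the value was −0.17, and without KO2 it was 0.78 with an adjusted p of 0.0135 in the same edgeR test, so its direction rested on KO1. Per length it was the least abundant of the 10 genes, with 11.9 and 12.6 FPKM in WT and 19.1 and 9.67 FPKM in KO, and it ranked between place 3730 and place 5449 of all genes.

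Read together, 0 of the 10 genes passed the threshold by edgeR's quasi-likelihood test, against 0.372% of all 11302 genes tested, or 0.292% counting higher genes only. At an unadjusted p below 0.05, 8 of 10 were higher in KO (all but B2m and Nlrc5), against 6.58% of all genes. DESeq2 called 4 of 10 (H2-D1, Tap1, Tap2 and Psmb8, with adjusted p of 0.0429, 0.0203, 0.0373 and 0.0316), against 1.39% of all genes called higher and 1.61% called in either direction. By limma on log2(FPKM + 1), 0 of 10 were called, against 0.126% of all genes called higher and 0.207% called in either direction. Both KO libraries were above both WT libraries for 9 of 10 genes in CPM, which held for 21.4% of all genes, and for 7 of 10 in FPKM, which held for 12.3%. The log2 fold change was above 0 for all 10, against 49.4% of all genes. The linear folds ran from 1.30 for Nlrc5 to 2.0 for Tap1, and the median log2 fold change was 0.72, against −0.006 for all genes. With library totals in place of TMM the median of all genes moved to −0.154, and the median of the 10 genes stood 0.73 above it, as in the TMM fit.

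The libraries within a group also differed in the same order for most of these genes. WT2 was the lowest library for 9 of 10, against 25.7% of all genes, and KO1 the highest for 9 of 10, against 25.5% of all genes. WT1 over WT2 ran from 0.99 to 1.57 with a median of 1.28, and KO1 over KO2 from 0.98 to 1.95 with a median of 1.31. The spread within each group was thus close in size to part of the difference between the groups, whose median fold was 1.65. The calls of edgeR also moved with single libraries, over all genes as well as over these. Over the genes tested, the chi-square per degree of freedom between libraries was 20.1 in KO and 9.05 in WT. A fit without a KO library takes its spread from the WT pair alone, and one without a WT library from the KO pair alone. The calls thus depend on which pair remains as well as on the library removed. Without KO2, 5 of the 10 genes were called (Tap1, Tap2, Psmb9, Psmb10 and Nlrc5), against 652 of all genes tested (5.54%). Without KO1, 1 was called (Psmb10), against 405 of all genes tested (3.46%). Without WT1 or without WT2, 0 of the 10 were called, against 0.563% and 0.215% of all genes tested. Without WT2, the log2 fold changes of the 10 genes ran from 0.36 for B2m to 0.72 for Tap1. The p-values of that fit rest on the spread of the KO pair alone and cannot decide whether these genes differed.

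**Figure D3:**
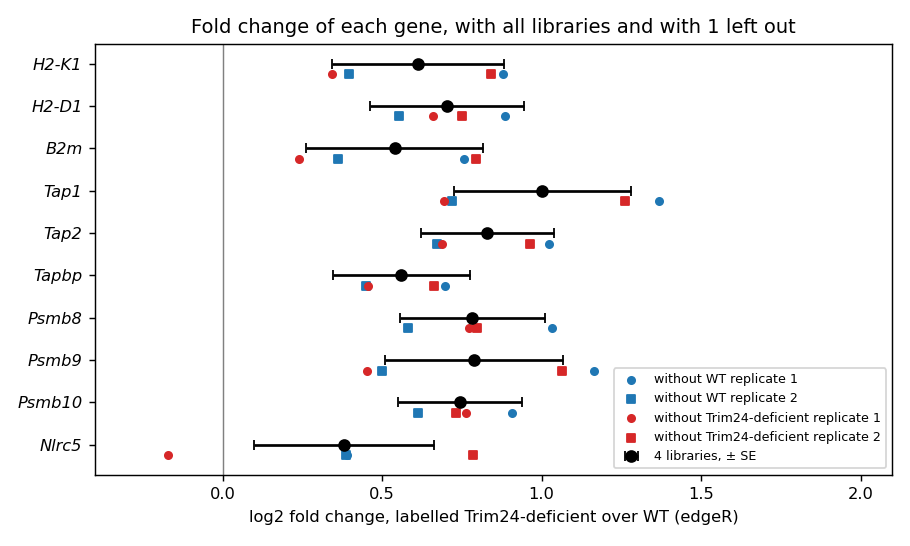
Log2 fold change of each gene in libraries labelled Trim24-deficient over WT, by edgeR with all 4 libraries (black, bars are ± SE) and with 1 library left out (colored). Every value lies above 0 except that of Nlrc5 without replicate 1 of the labelled group, at −0.17.

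The order of the levels per length was the same at its ends in every library. B2m was highest, followed by H2-D1 (2422 to 4063 FPKM) and H2-K1, then Psmb8 at 495 to 899 FPKM. Psmb9 (198 to 473 FPKM) and Tapbp (238 to 365 FPKM) overlapped and exchanged places between libraries. Tap1 (81.2 to 218 FPKM) and Psmb10 (107 to 176 FPKM) overlapped too, with Tap2 below both in each library at 48.7 to 95.4 FPKM and Nlrc5 last.

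Markers of other cell types were summed in each library. As background, T and NK cells secrete interferon-gamma, and nearly all nucleated cells express class I genes. The sum of 7 T cell markers was 88.4 CPM in WT1, 66.7 in WT2, 181 in KO1 and 61.0 in KO2. The sum of 6 NK cell markers was 122, 49.6, 287 and 64.3 CPM in the same order. KO1, the library with the highest values for 9 of the 10 genes, was also highest for both sums, while KO2 was near or below WT in both. Dendritic cell markers (8 genes) summed to 62.9 to 71.5 CPM in WT and to 104 and 64.1 CPM in KO1 and KO2, and B cell markers (4 genes) to 46.3 to 55.4 CPM in the 4 libraries. Of the 6 dendritic cell markers tested, 4 had a log2 fold change above 0 and 2 below 0, Flt3 (−2.61) and Cd209a (−1.23). Neutrophil markers (7 genes) summed to 177 and 206 CPM in WT and 271 and 409 CPM in KO. Stroma markers (6 genes) summed to 18.6 and 12.3 CPM in WT and 39.4 and 26.3 CPM in KO. Only 1 stroma marker, Pecam1, was tested, with a log2 fold change of 1.42 (adjusted p = 0.228, edgeR's quasi-likelihood test). Melanoma markers (7 genes) summed to 813 and 773 CPM in WT and 611 and 804 CPM in KO. Of these markers, 6 had a log2 fold change below 0, with a median of −0.46 over the 7. The exception was Tyr, the most abundant, at 375 to 496 CPM in the 4 libraries. The part of these cells in the class I values was not tested.

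The other class I chains were tested as a list of 22, of which 20 were in the files and 15 passed the filter on low counts. None of the 15 was called by edgeR, against 0.372% of all genes. At an unadjusted p below 0.05, 7 were higher, against 6.58% of all genes. The median log2 fold change was 0.66, against −0.006 for all genes. H2-T23, the heavy chain of the Qa-1 molecule, was at 627 and 474 CPM in WT and 1343 and 754 CPM in KO, with a log2 fold change of 0.93 (SE 0.29, adjusted p = 0.244, edgeR's quasi-likelihood test). H2-T22, a non-classical chain recognized by gamma-delta T cells, was at 207 and 139 CPM in WT and 373 and 261 CPM in KO (0.87, adjusted p = 0.22, same edgeR test). H2-M3, which presents formylated peptides, was at 146 and 140 CPM in WT and 217 and 195 CPM in KO (0.53, adjusted p = 0.291, same edgeR test). Fcgrt, the class I-like receptor that recycles IgG, had its highest value of 528 CPM in KO2 and overlapped between the groups. Without KO2 the log2 fold changes of H2-T23 and H2-T22 were 1.29 and 1.11, and without KO1 they were 0.46 and 0.59. Fcgrt had a log2 fold change of 0.66 with all libraries, passed without KO1 (1.11, adjusted p = 0.00338, edgeR), and stood at 0.016 without KO2.

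The related genes H2-Q7 and H2-Q9 varied in opposite ways between the WT libraries. H2-Q9 was at 123 CPM in WT1 and at 7.29 CPM in WT2, and H2-Q7 was at 49.9 and 97.3 CPM in the same libraries. The genes are named after their values were seen, and their values are uncertain, since near-identical genes of this family can share reads.

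Among 10 genes for chaperones and peptide trimming, 0 were called, and the median log2 fold change was 0.05. At an unadjusted p below 0.05, 1 was higher, against 6.58% of all genes. Tapbpl, a relative of tapasin that edits peptides, was that gene, at 74.9 and 50.8 CPM in WT and 127 and 86.5 CPM in KO (0.76, SE 0.25, adjusted p = 0.266, edgeR's quasi-likelihood test). It passed without KO2 (1.01, adjusted p = 0.00305, edgeR) and was at 0.46 without KO1. For calreticulin (Calr), which binds newly made heavy chains, the log2 fold change was −0.28 (adjusted p = 0.611), for Pdia3 it was 0.37 (adjusted p = 0.552) and for Canx 0.16 (adjusted p = 0.802, same edgeR test). The 14 genes of the standard proteasome core, which include Psmb5, Psmb6 and Psmb7, had a median of 0.22, with 0 called and 1 at an unadjusted p below 0.05. Of 5 proteasome activator and assembly genes, 0 were called, and the median log2 fold change was 0.38. Of these, 3 were above 0 and 2 below 0, among them Psme3 at −0.26 (adjusted p = 0.625, same edgeR test). Psme2, a subunit of the interferon-inducible PA28 cap, was at 394 and 306 CPM in WT and 591 and 539 CPM in KO (0.69, adjusted p = 0.232, same edgeR test). The log2 fold change was 0.38 for its partner Psme1 (adjusted p = 0.554) and 0.38 for the assembly factor Pomp (adjusted p = 0.447, same edgeR test). The 8 tested genes of the promoter complex that works with NLRC5 or CIITA had a median of −0.004, with 0 called and 1 at an unadjusted p below 0.05. That gene was Ciita, the class II transactivator, at 21.0 and 20 CPM in WT, 91.6 CPM in KO1 and 29.4 CPM in KO2 (1.56, SE 0.44, adjusted p = 0.206, same edgeR test). Ciita passed without KO2 (2.16, adjusted p = 7.93e-08, edgeR) and was at 0.52 without KO1 (adjusted p = 0.302, edgeR), so the size of its difference rested on KO1. This gene was named after its values were seen. Over these lists and the other class I chains together, 0 of 52 tested genes were called by edgeR, against 0.372% of all genes. At an unadjusted p below 0.05, 11 were higher, against 6.58% of all genes. DESeq2 called 3 higher, against 1.39% of all genes.

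Genes of interferon signaling are given because they act upstream of the class I pathway. Of 14 tested, 0 were called, against 0.372% of all genes, and the median log2 fold change was 0.42. At an unadjusted p below 0.05, 5 were higher, against 6.58% of all genes. Irf1, a factor that binds class I promoters, was at 214 and 116 CPM in WT and 510 and 212 CPM in KO, where KO2 lay just below WT1 (1.13, SE 0.40, adjusted p = 0.303, edgeR's quasi-likelihood test). For Ifngr1, a chain of the interferon-gamma receptor, the log2 fold change was 0.42 (adjusted p = 0.42, same edgeR test). KO1 was again the highest library for Irf1. Without KO2 this gene passed (1.63, adjusted p = 6.14e-05, edgeR), and without KO1 its log2 fold change was 0.36 (adjusted p = 0.469, edgeR).

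MHC class II genes, whose products present peptides from ingested proteins to CD4+ T cells, are set beside the class I genes. Of 11 class II genes tested, 3 were called higher in KO, against 0.292% of all genes, 9 were higher at an unadjusted p below 0.05, against 6.58%, and the median log2 fold change was 1.5, against 0.72 for the class I genes. H2-Ab1 was at 1048 and 718 CPM in WT and 4400 and 3945 CPM in KO (2.24, adjusted p = 0.00904, edgeR's quasi-likelihood test). Cd74, the invariant chain, was at 2918 and 2272 CPM in WT and 11131 and 9585 CPM in KO (2.0, adjusted p = 0.0133), and the log2 fold change of H2-Eb1 was 1.97 (adjusted p = 0.0394, same edgeR test). Without WT2, Cd74 and H2-Eb1 no longer passed (adjusted p = 0.0826 and 0.196, edgeR). H2-Eb1 also missed the threshold with library totals (adjusted p = 0.0699), upper-quartile scaling (0.0568) and the length trend removed (0.0725, edgeR). In the limma fits on FPKM the adjusted p was 0.149 to 0.468 for H2-Eb1 and 0.077 to 0.478 for Cd74, and H2-Ab1 missed the threshold only in the limma fit with no filter on low values (0.324). DESeq2 called 7 of the 10 class II genes with an adjusted p higher in KO, against 1.39% of all genes. It called 4 of the 10 class I genes. The difference between the class I and class II lists was not tested.

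**Figure D4:**
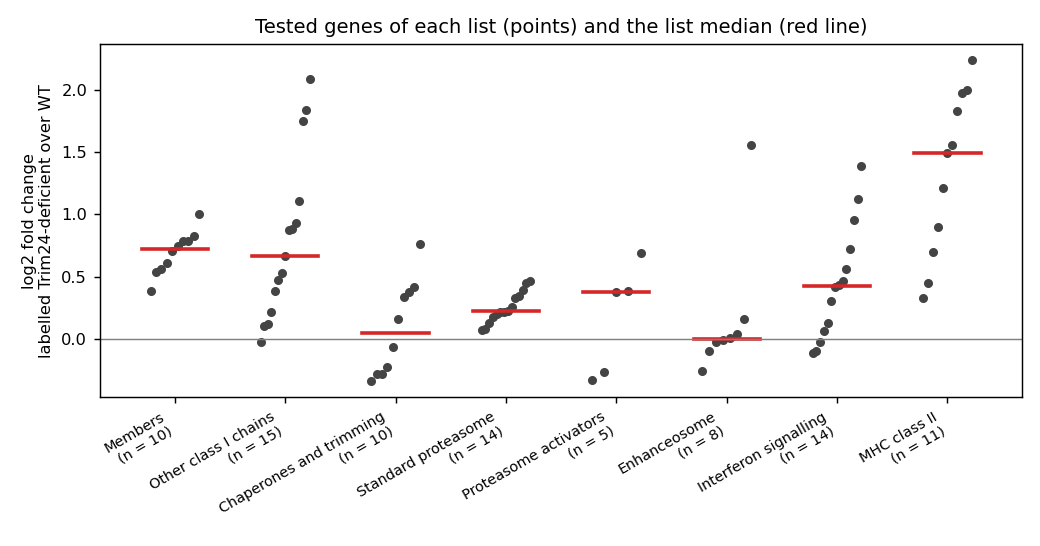
Log2 fold change (libraries labelled Trim24-deficient over WT, edgeR) of each tested gene of the 10 class I and loading genes (left) and of 7 further lists, with the list median as a red line. The 10 genes lie between 0.38 and 1.0 around a median of 0.72, the standard proteasome around 0.22 and the class II genes around 1.5.

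Of the 10 genes, 7 lie in 1 stretch of the MHC on chromosome 17, from position 33915899 to 35267499 (GRCm38). The class II genes with H2 names lie between them, but Cd74, Ciita and Ctss do not. Apart from the listed genes, this stretch held 77 other genes in the files, of which 53 were tested. The median log2 fold change of these neighbors was −0.017, and none was called by edgeR, against 0.372% of all genes. At an unadjusted p below 0.05, 7 were higher and 3 lower, against 744 (6.58%) and 635 of all 11302 genes. DESeq2 called 2 of 49 neighbors higher, against 1.39% of all genes. B2m on chromosome 2 and Psmb10 and Nlrc5 on chromosome 8 lie outside the MHC.

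The mean centred log2 CPM of the 10 genes was −0.16 in WT1, −0.53 in WT2, 0.53 in KO1 and 0.15 in KO2. Among 5332 other genes that averaged 5 or more in log2 CPM, the closest to this profile over the 4 libraries by Euclidean distance was Phf11b (0.0588), followed by Sting1 (0.0805), BC028528 (0.0815), Pygl (0.0889) and Ece1 (0.0907). Sting1, an adaptor of cytosolic DNA sensing, was at 180 and 136 CPM in WT and 275 and 209 CPM in KO. Phf11b, a PHD finger gene, was at 140 and 113 CPM in WT and 227 and 181 CPM in KO. None of the 5 passed the threshold with all libraries (adjusted p = 0.219 to 0.317, edgeR's quasi-likelihood test), against 0.372% of all genes. The 5 were picked for matching the 10 genes in these same libraries. Their differences between the groups therefore follow from the choice and are no separate result.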

How the data were processed

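TAM libraries were grouped by their genotype labels (2 WT, 2 labelled Trim24-deficient), and all 4 entered each test. Per the methods and labels, the authors aligned reads with Bowtie to GRCm38/mm10 and used RSEM to quantify genes (versions not given in the sources used here). The deposited expected counts are not normalized. The FPKM values were deposited by the authors after scaling to transcript length and library. A gene missing from a library's deposited table was taken as 0. Of 16739 genes, 16698 matched a symbol.

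Expected counts were rounded and tested with edgeR 4.0.16 in R 4.3.3 (filterByExpr, leaving 11302 genes, TMM, glmQLFit, glmQLFTest), with Benjamini-Hochberg adjustment over all genes tested. A call needed an FDR under 0.05 and a fold over 1.5, the thresholds of the study's methods. With 2 libraries per group the error estimate of each gene leans on that of all genes. Standard errors are the log2 fold change divided by the square root of F. DESeq2 1.42.0, limma 3.58.1 on log2(FPKM + 1), other scalings and filters, a correction for the deposited transcript length, a replicate block and leaving out each library were alternatives. The edgeR steps were tested on simulated counts.

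The 10 genes and the lists were chosen with earlier results of these data known, and the promoter motifs with the sequences in view. Named were the 10 genes, Trim24, Xist and Ddx3y, called genes of each list with at most 4 further genes of the highest mean FPKM, Psmb5, Psmb6 and Psmb7, and the 5 genes of the closest profile. Ciita, H2-Q7, H2-Q9, Pecam1, Flt3 and Cd209a were named after their values were seen. The value of 1 further gene that the rule names is not reported here. Positions are from GENCODE M21 (GRCm38).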

Additional observations from a re-analysis of the deposited data

How the results depend on the processing

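Over 14 alternatives, which refit the same libraries and are not independent, 139 of 140 log2 fold changes of the 10 genes were above 0. The exception was Nlrc5, at −0.17 without replicate 1 of the labelled group (0.78 without replicate 2). The 42 genes called by edgeR over all genes became 165 with DESeq2, 23 and 20 with limma on log2(FPKM + 1) and log2(FPKM + 0.1), 0 with limma without a filter, and 25 to 652 with 1 library left out. Of the 10 class I genes, 0 were called, against 4 with DESeq2 and 0 to 5 with 1 library left out. Of their 52 partners, 0 were called, against 3 with DESeq2 and 0 to 9. The summed heavy chains ranged from 0.52 to 0.90, and the difference in immunoproteasome share from 4.99 to 12.2 percentage points, with 1 library left out. Without replicate 2 of the labelled group, Psmb3 was at −0.012 (0.63 without replicate 1). Psmb5 was at −0.077 with library totals, −0.029 with the length trend removed, −0.074 in the limma fits and −0.033 without WT replicate 2 (0.20 without WT replicate 1). Psmb7 was at −0.017 with library totals and −0.016 in the limma fits, and H2-Q9 at −0.030 without WT replicate 2 (4.05 without WT replicate 1). The causes were not tested. Higher genes were 78.6% of calls, and 73.3% with library totals.

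The labels number replicates 1 and 2 in both groups, but the only correlation of deviations, over 2 pairs, was 0.165, and nothing states that equal numbers share a litter or day. With the number as a replicate block, edgeR called 634 genes (5.61% of those tested), 7 of the 10 class I genes, 9 partners and the heavy chain sum (0.70, adjusted p = 0.00391). This block leaves 1 residual degree of freedom. The lowest count of any of the 10 genes in a library was 353. Counting error was not set beside the spread between libraries. That spread was very small for some genes, such as Nlrc5 in WT (82.0 ± 0.66 CPM) and Psmb10 in KO (233 ± 3.10 CPM). An SD from 2 libraries is itself uncertain.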
